A study of Mus musculus with 2 samples.

Results

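Krt6a, Krt6b, Krt16 and Krt17 are the keratins that skin makes when it is wounded, and their counts were followed here through hair follicle stem cells and the cells these leave in a wound. The members were taken by symbol from the deposited feature table, which holds all 4 of them among 32285 genes. The study sequenced RNA of single mouse skin cells marked by Sox9-CreER;R26-LSL-YFP, a reporter of descent from Sox9-expressing hair follicle cells. It asks how Phgdh, the first enzyme of serine synthesis, bears on these cells in resting and wounded skin. The cells carried 6 hashtag antibodies, 1 for each condition, and were captured together. The 6 pools were Phgdh +/+ and Phgdh fl/fl cells from unwounded skin, from skin 3 days after wounding and from skin 5 days after wounding. All mice had a C57B6/J background and the Sox9-CreER and R26-LSL-YFP alleles, so the +/+ controls express the same Cre, and Phgdh can be lost only in cells in which that Cre was active. The labels state pooled males and females and give no age and no number of mice per pool. Every pool was sorted for high integrin-α6 and for YFP and against CD140a, CD117, CD31 and CD45, markers of fibroblasts, melanocytes or mast cells, endothelium and blood cells. The unwounded cells alone were also sorted against SCA1 and for CD34 and CD200, which mark the bulge, the resting stem cell niche of the follicle.

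Keratins build the intermediate filaments of epithelial cells as obligate pairs of a type II and a type I chain. Krt6a and Krt6b are type II chains, Krt16 and Krt17 are type I chains, and Krt5 with Krt14 is the standing pair of the basal layer. In resting skin these wound keratins are largely kept to the hair follicle, nail and other special sites, and keratinocytes at a wound switch them on within hours. Krt17 is also a regular keratin of parts of the hair follicle, and Krt6a and Krt16 occur in its companion layer.

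Krt6a (ENSMUSG00000058354) lies on chromosome 15 from 101689928 to 101694305 and Krt6b (ENSMUSG00000023041) beside it on chromosome 15 from 101676023 to 101680293, in the GRCm38.p6 gene table that stands for the mm10 build of the labels. Krt16 (ENSMUSG00000053797) lies on chromosome 11 from 100246091 to 100248902 and Krt17 (ENSMUSG00000035557) on chromosome 11 from 100256215 to 100261029. Krt6a and Krt6b are near-identical paralogs, and how the authors' counting shared reads between them is not given in the sources used here, so the split between this pair is uncertain.

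The +/+ pools held 406, 1281 and 1353 cells (unwounded, 3 days, 5 days) and the fl/fl pools 662, 523 and 1434. Unwounded cells were shallow, with medians of 7174.5 and 7243 UMIs (unique molecules counted per cell) against 36277 to 45701.5 in the wounded pools. Each condition is 1 pool, so nothing could be tested between conditions, and a pool that is called higher is higher only as sampled here. Intervals are at 95% and take in counting error alone; how animals vary is not in them. Levels are UMIs per 1000000 UMIs of the pool (CPM), from 3′ tags whose number does not grow with transcript length, and are compared within a gene. Phgdh, the targeted gene, stood at 54.3 CPM, 117 CPM and 138 CPM in the +/+ pools (unwounded, 3 days, 5 days) and at 25.2 CPM, 15.3 CPM and 20.2 CPM in the fl/fl pools, though the part between its loxP sites is not given in the sources used here. Summed over 5 fibroblast markers the level was 29.0 and 31.5 CPM in unwounded cells (+/+, then fl/fl), with 3 and 2 of the 5 at 0, and 0.352 to 1.53 CPM in the wounded pools. Cells that carry Xist and next to no Y-linked RNA made up 31.1% and 23.7% of the +/+ pools at 3 and 5 days and 0% of the other 4 pools.

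A cell's condition rests on the hashtag called for it, and the share of its hashtag UMIs in that hashtag is given below as its hashtag purity. Median purity was 78.0% and 86.5% for unwounded +/+ and unwounded fl/fl cells and 94.0% to 97.4% in the wounded pools. The tags are shown because the unwounded result below turns on how single cells were assigned, with capitals where a base differs from the +/+ unwounded tag.
CMO301, +/+ unwounded: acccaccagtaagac
CMO302, fl/fl unwounded: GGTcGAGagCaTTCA
CMO303, +/+ 3 days: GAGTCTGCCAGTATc
CMO304, fl/fl 3 days: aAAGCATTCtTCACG
CMO305, +/+ 5 days: TATAGAACgCCagGc
CMO306, fl/fl 5 days: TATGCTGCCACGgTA
Each tag has 15 bases and differed from every other tag at 7 or more positions, and the +/+ unwounded tag at 11 or more.

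All 4 wound keratins were more than 2-fold higher in each wounded pool than in the unwounded pool of its genotype. Krt6a, a type II chain, stood at 1365 CPM (1325 to 1406) in unwounded, 6786 CPM (6764 to 6808) in 3-day and 6483 CPM (6462 to 6504) in 5-day +/+ cells. In fl/fl cells it stood at 816 CPM (791 to 841), 7278 CPM (7242 to 7313) and 7443 CPM (7423 to 7464). Both unwounded pools were low and the 4 wounded pools lay close together.

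Krt6b, its paralog, stood at 539.6 CPM (515 to 566), 2947 CPM (2933 to 2962) and 3466 CPM (3451 to 3482) in +/+ cells (unwounded, 3 days, 5 days). In fl/fl cells it stood at 183 CPM (171 to 195), 2998 CPM (2975 to 3021) and 3560.4 CPM (3547 to 3574). The wounded pools were again close to each other, with both 5-day pools above both 3-day pools, whereas the unwounded +/+ pool was 2.95-fold above the unwounded fl/fl pool.

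Krt16, the type I chain that pairs with Krt6, stood at 1647 CPM (1603 to 1692), 9685 CPM (9658 to 9711) and 10266 CPM (10239 to 10293) in +/+ cells. The fl/fl pools gave 587 CPM (566 to 608), 10786 CPM (10743 to 10829.5) and 11401 CPM (11376 to 11426). Its pattern followed that of Krt6b, with the highest levels at 5 days within each genotype and a gap between the unwounded pools.

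Krt17 was the only member that was lower at 5 than at 3 days in both genotypes. It stood at 614 CPM (587 to 641), 3546 CPM (3529.8 to 3561) and 2285 CPM (2272 to 2297) in +/+ cells and at 383 CPM (366 to 400.1), 3636 CPM (3611 to 3661) and 1913 CPM (1903 to 1923) in fl/fl cells. For none of the 4 genes did the counting intervals of neighbours in the order of the 6 pools overlap, which at these depths says nothing of differences between animals. The 4 genes together took 0.417%, 2.30% and 2.25% of all UMIs in +/+ and 0.197%, 2.47% and 2.43% in fl/fl cells.

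**Figure D1:**
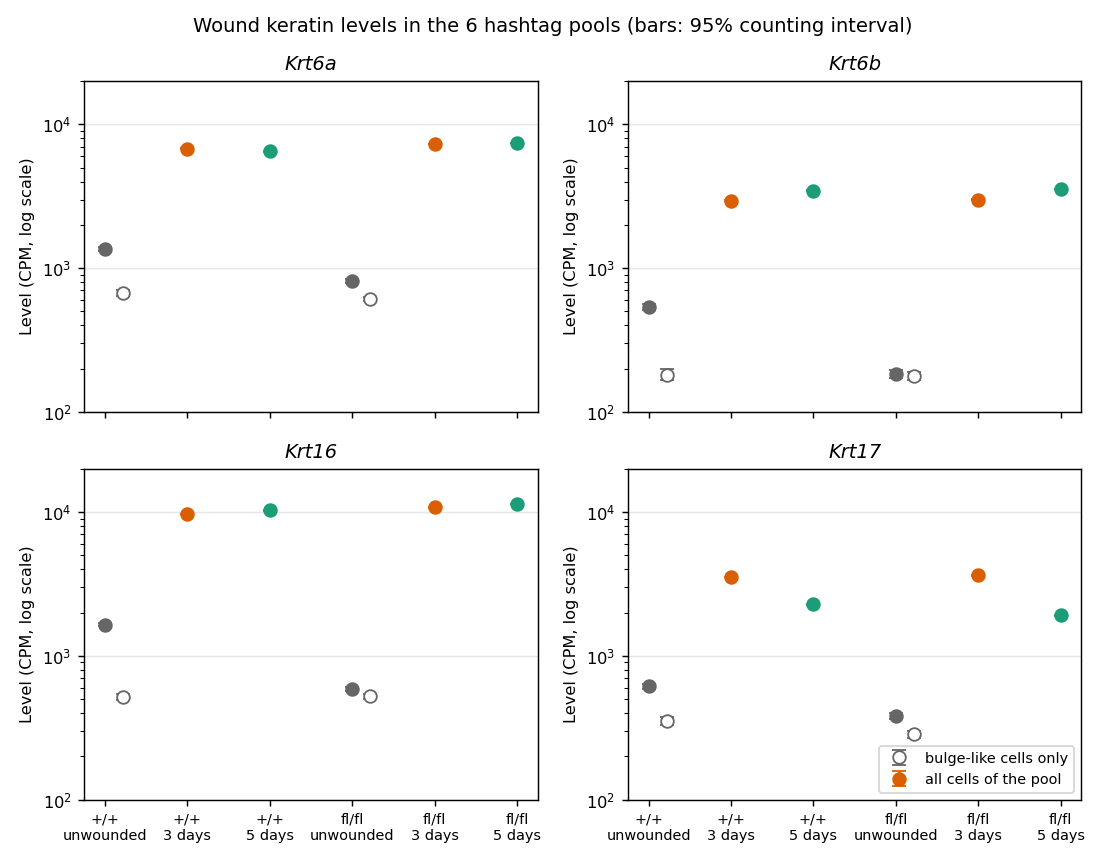
Level of each wound keratin (CPM, log axis) in the 6 pools, with filled points for all cells, open points for the cells of bulge-like clusters in the unwounded pools, and bars for 95% counting intervals. Krt16 was at 1647 CPM in all unwounded +/+ cells and at 521 CPM in the bulge-like ones, and every wounded pool lies above both.

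In +/+ cells the log2 ratio of 3 days over unwounded was 2.31 (2.27 to 2.36) for Krt6a, 2.45 (2.38 to 2.52) for Krt6b, 2.56 (2.52 to 2.60) for Krt16 and 2.53 (2.47 to 2.59) for Krt17, between 4.97- and 5.88-fold. These +/+ ratios depend on a few unwounded cells described below, and without the 5 cells of each pool with the most wound keratin UMIs they were 3.41, 3.95, 4.11 and 3.21. At 5 days the ratios were 2.25 (2.20 to 2.29), 2.68 (2.62 to 2.75), 2.64 (2.60 to 2.68) and 1.90 (1.83 to 1.96), and without those cells 3.34, 4.17, 4.18 and 2.56. Thus 4 of 4 members were at least 2-fold higher at each time, where 13.4% (3 days) and 11.8% (5 days) of all genes of at least 50 CPM were and 20.7% and 20.9% were 2-fold lower. In fl/fl cells 4 of 4 were again 2-fold higher at each time, against 14.1% of genes at 3 days and 14.1% at 5 days, with 20.6% and 20.1% lower. There the log2 ratios were 3.16 (3.11 to 3.20), 4.04 (3.94 to 4.13), 4.20 (4.15 to 4.25) and 3.25 (3.18 to 3.31) at 3 days and 3.19 (3.15 to 3.23), 4.28 (4.19 to 4.38), 4.28 (4.23 to 4.33) and 2.32 (2.26 to 2.39) at 5 days. Both times of a genotype share its unwounded pool. The depth and the sort differed between unwounded and wounded cells, and their part in these ratios cannot be told apart from wounding.

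Scaling by TMM factors (edgeR) in place of the total moved every wounded ratio up by 0.53 to 0.60 on the log2 scale. With it the share of 2-fold calls that were higher went from 39.3% to 73.3% in +/+ at 3 days, with 32.6% of genes higher and 11.9% lower. In the other 3 wounded comparisons it went from between 36.0% and 41.2% to between 71.4% and 73.4%. All 4 wound keratins lie above this shift.

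The standing basal pair did not move as a pair. Krt5 was within 1.29-fold of its unwounded level in all 4 wounded pools, with log2 ratios of 0.15 and 0.18 in +/+ and 0.11 and 0.37 in fl/fl cells, to which TMM scaling adds the shift above. Krt14, its type I partner, had log2 ratios of 1.96, 2.03, 2.36 and 2.59 in the same order. The unwounded levels that these ratios divide by rest in part on few cells. There 5 cells held 45.1% of the Krt14 UMIs in +/+ and 28.6% in fl/fl, against 1.39% to 4.19% in the wounded pools. Krt75, a companion layer keratin, was at or below 10.5 CPM in every pool. In UMIs, type II over type I wound keratins stood at 0.843, 0.736 and 0.793 in +/+ and 1.03, 0.713 and 0.826 in fl/fl cells.

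The pool level hid a different spread of each gene over cells. At 3 days Krt6a and Krt17 were several times higher in the median cell than in unwounded skin, whereas Krt6b was near its unwounded level there. In +/+ the median cell at 3 days held 38.8 Krt6a UMIs per 10000 against 5.60 in unwounded cells, and 17.4 against 1.77 for Krt17. For Krt6b the median was 1.70 against 1.51, while the 90th percentile was 84.5 against 4.97. Krt16 lay between, with medians of 9.34 and 4.88 and 90th percentiles of 262 and 10.8. Free RNA of the suspension, estimated below, would give 103 CPM of Krt6b in unwounded and 19.4 CPM in 3-day +/+ cells. For Krt16 it would give 300 and 56.3 CPM. The medians thus rest on unlike backgrounds, whose part was not tested. The fl/fl pool at 3 days had the same shape, with medians of 53.8, 1.95, 16.5 and 18.2 for Krt6a, Krt6b, Krt16 and Krt17. At 5 days the Krt6b median was 1.77 in +/+ but 3.79 in fl/fl cells, against 1.48 in unwounded fl/fl cells.

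**Figure D2:**
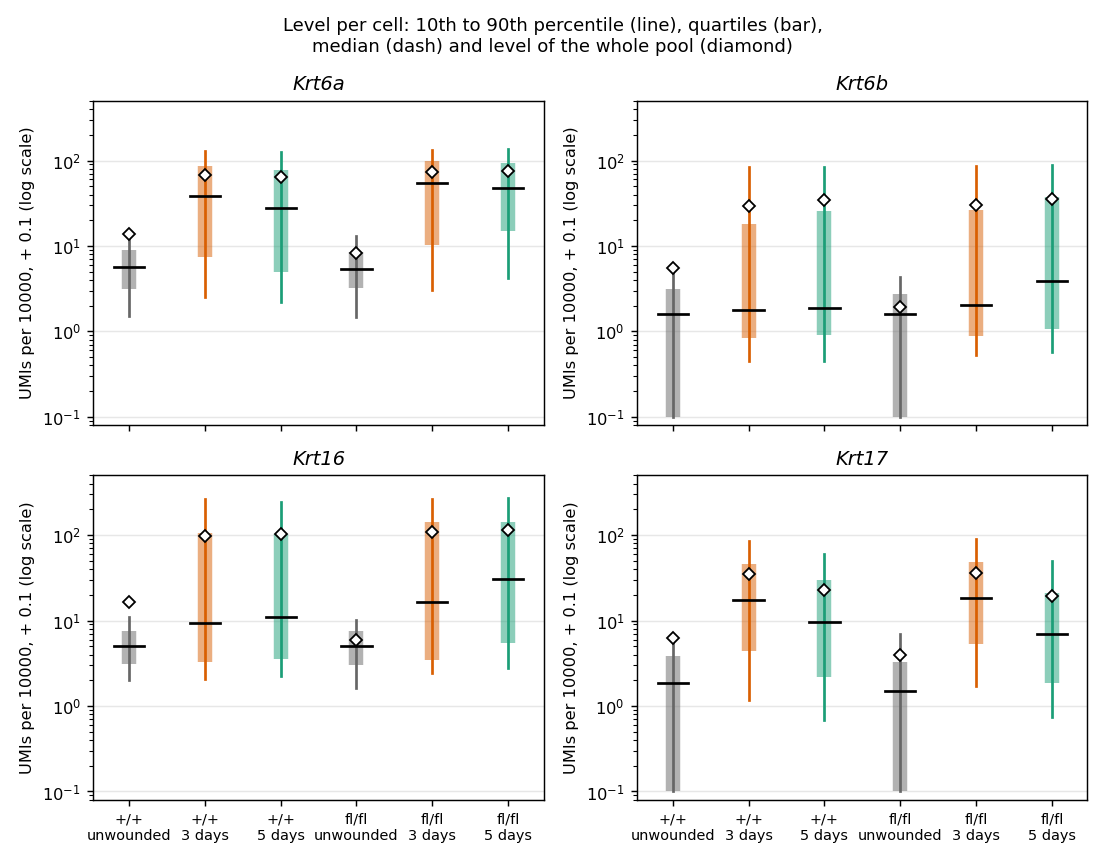
UMIs of each wound keratin per 10000 UMIs of a cell (log axis, 0.1 added), by pool, with the 10th to 90th percentile of cells as a line, the quartiles as a bar, the median as a dash and the level of the whole pool as a diamond. For Krt6b the diamond of the 3-day +/+ pool lies far above its median of 1.70, and for Krt6a the median of 38.8 is near the diamond.

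Counting cells with at least 10 UMIs of a gene per 10000 gave nested sets. In +/+ wounds at 3 days these were 70.3% of cells for Krt6a, 61.7% for Krt17, 48.9% for Krt16 and 29.8% for Krt6b. Between 10.9% (Krt6b) and 27.0% (Krt17) of the cells lay within 2-fold of that level, so the sets are ranges and not cell types. Of 382 cells high in Krt6b, 375 were also high in Krt16 and 377 in Krt6a. Of 627 cells high in Krt16, 613 (97.8%) were high in Krt6a, but only 68.1% of the 900 cells high in Krt6a were high in Krt16. Cells high in Krt6b thus lay almost wholly within those high in Krt16, and these within those high in Krt6a. Over the 4 wounded pools the share of Krt16-high cells that were Krt6a-high ranged from 92.8% to 99.3%, and the share of Krt6b-high cells that were Krt16-high from 98.2% to 100%. Krt17 stood outside this nesting, as 48.0% to 71.8% of Krt16-high cells were Krt17-high.

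In the unwounded +/+ pool at least 50% of the Krt6a, Krt6b and Krt16 UMIs sat in a handful of cells, and the rest was spread widely. For Krt6a, Krt6b, Krt16 and Krt17, 80% of the UMIs took 104, 56, 63 and 57 cells. To hold 90% took 196, 133, 173 and 136 of the 406 cells. A single cell held 1106 of 1749 Krt6b UMIs (63.2%) and 2751 of 5338 Krt16 UMIs (51.5%). The same cell held 32.4% of the Krt6a and 35.8% of the Krt17 UMIs, and the top 4 of 406 cells for a gene held at least 50% of each of these. For all 4 members the highest cell held at least 30% of the UMIs, as it did for 0.901% of genes of at least 50 CPM in that pool, where the median gene had 3.45% in its highest cell. Other keratins shared this, as the highest cell for Krt1 held 52.7% and that for Krt10 50.6%. For Krt14 it held 21.0% and for Krt5 5.62%.

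The unwounded fl/fl pool held no such cell for the wound keratins, though its highest cells held 39.9% of Krt1 and 33.2% of Krt10. There 50% of the UMIs took 73 cells for Krt6a, 124 for Krt6b, 134 for Krt16 and 20 for Krt17, and the highest cells held 6.41%, 4.13%, 7.29% and 14.6%. In the wounded pools 50% took 35 (Krt6b, fl/fl, 3 days) to 230 cells (Krt6a, fl/fl, 5 days), and no cell held more than 2.95% of a member. Among all genes of at least 50 CPM the highest cell held 30% or more for 0.187% in unwounded fl/fl, 0.0% and 0.0357% in wounded +/+ and 0.248% and 0.0% in wounded fl/fl cells (3 and 5 days).

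**Figure D3:**
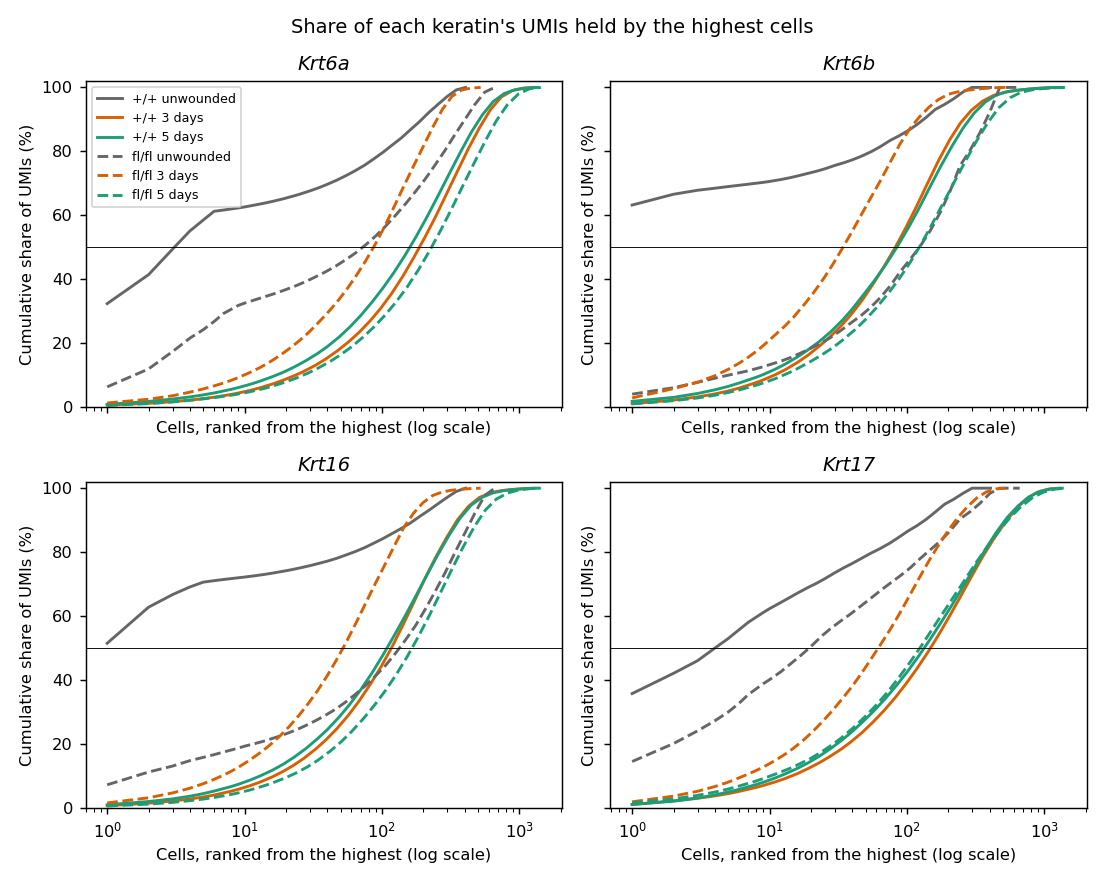
Cumulative share of the UMIs of each wound keratin (%) over cells ranked from the highest (log axis), with a line per pool, solid for +/+ and dashed for fl/fl, and a thin line at 50%. The unwounded +/+ line starts at 63.2% for Krt6b, and the lines of all wounded pools start at 2.95% or less.

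The 6 cells with the most wound keratin counts in the unwounded +/+ pool were of mixed kind, and in 3 of them another pool's tag had more UMIs. The highest one had 100602 UMIs, 6004 of them wound keratin, 4249 of Krt14 and 0 of Cd34, the surface marker these cells had been sorted for. It fell in the cluster with Il33, Gjb2 and Sprr1b as leading genes, of which it was the only unwounded +/+ member. Only 38.6% of its hashtag UMIs were of the +/+ unwounded tag, and its most counted tag was that of +/+ cells at 5 days. It had 0 Phgdh UMIs, as had the second and the sixth cell. The second cell had 41443 UMIs, 601 of Krt16 and 9.76% purity, with more UMIs of the tag of fl/fl cells at 5 days. The sixth had a purity of 23.9% and the same leading tag as the second. In the other 3 the +/+ unwounded tag led, at purities of 71.2%, 82.7% and 75.3%, with 9, 3 and 12 Phgdh UMIs and 356, 122 and 249 of Krt6a. Low purity by itself was common in this pool, as 77.8% of its cells were below 90% and 19.0% below 60%, but in only 12 of 406 cells did another tag have more UMIs. Whether these cells came from unwounded skin was not tested.

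Without the 6 cells with the most wound keratin UMIs, the unwounded +/+ levels were 583 CPM for Krt6a, 183 for Krt6b, 526 for Krt16 and 382 for Krt17. The fl/fl levels without its 6 highest cells were 639, 177, 546 and 294 CPM. The 2 unwounded pools then lay within 1.5-fold of each other for every member.

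**Figure D4:**
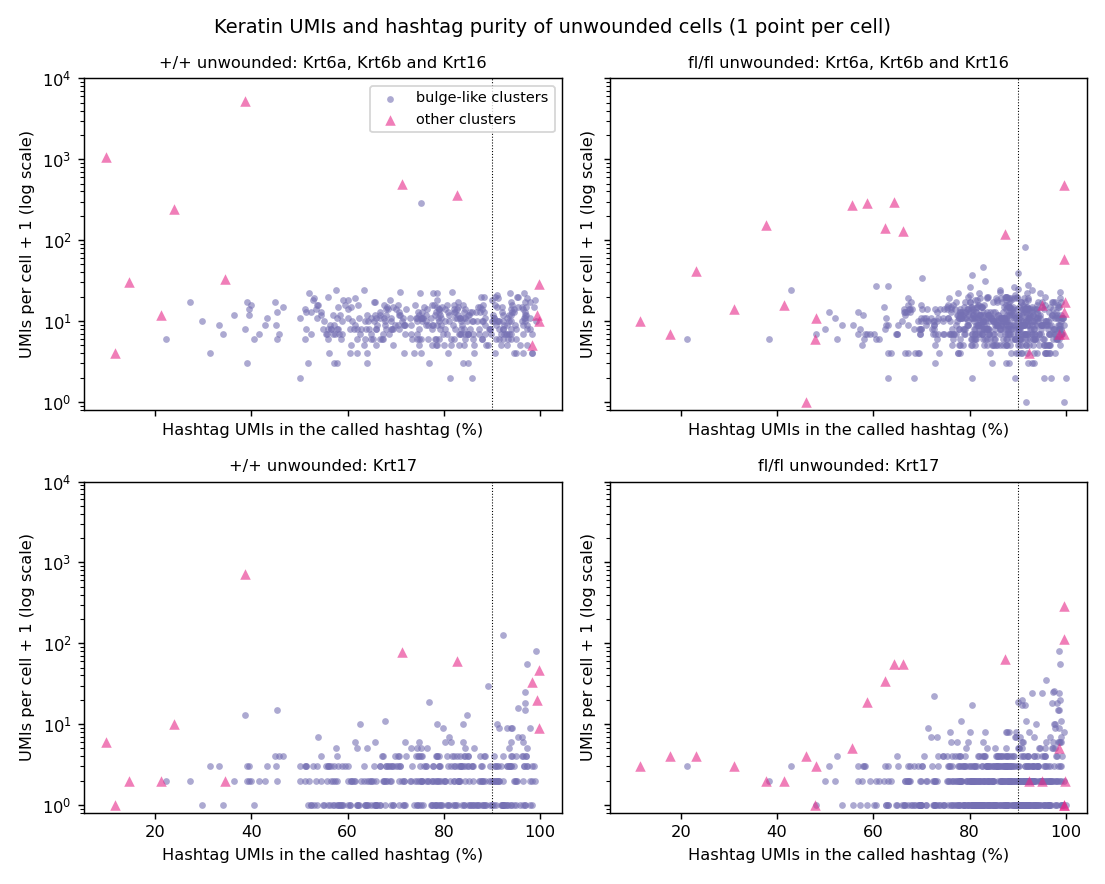
UMIs of Krt6a, Krt6b and Krt16 summed (top) and of Krt17 (bottom) in each unwounded cell (1 added, log axis) against its hashtag purity (%), with circles for cells of bulge-like clusters, triangles for the others and a dotted line at 90%. The highest +/+ cell lies at 38.6% purity, and bulge-like cells with many Krt17 UMIs lie near the right edge.

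Krt17 had a second set of carriers in unwounded skin, mostly of high purity. Among the 10 cells with the most Krt17 in the unwounded +/+ pool the median purity was 94.6%, against 71.0%, 73.2% and 54.9% for the top 10 of Krt6a, Krt6b and Krt16. In fl/fl it was 96.8% against 76.8%, 76.4% and 65.3%. In each pool 4 of the 10 highest Krt17 cells were below 90%, among them in +/+ the cell of 38.6% described above. Their median depth was 9142.5 UMIs in +/+ and 15634.5 in fl/fl, against pool medians of 7174.5 and 7243. A bulge-like cluster led by Aspn, Serpinb11 and Tgfb2 (cluster 15) held 20 of the unwounded +/+ cells but 19.7% of the Krt17 UMIs, and 41 of the fl/fl cells with 20.9%. Its cells had 2505 CPM of Krt17 in unwounded +/+ and 1445 CPM in unwounded fl/fl skin, while Krt6a stood at 442 and 451 CPM there. In fl/fl the highest Krt17 cell was in the cluster with upper follicle markers, with 288 Krt17 UMIs, 3 of Krt16 and 99.7% purity.

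Most unwounded cells, 393 of +/+ and 639 of fl/fl, fell in clusters with bulge markers, and there wound keratin levels were low and alike in both genotypes. Krt6a stood at 671 and 609 CPM (+/+ and fl/fl), Krt6b at 182 and 178, Krt16 at 521 and 523, and Krt17 at 354 and 285. The remaining 13 +/+ cells held 56.4%, 70.2%, 72.0% and 48.8% of the UMIs of Krt6a, Krt6b, Krt16 and Krt17. The remaining 23 fl/fl cells held 32.6%, 12.1%, 19.6% and 32.8%. Inside the bulge-like clusters of +/+ the low-purity cells were not the higher ones for Krt16 and Krt17. There Krt16 was at 601 CPM in cells of at least 90% purity and 498 CPM in the others, and Krt17 at 780.3 and 235 CPM. These values do not cover Krt6a and Krt6b. Their log2 ratios of 3 days over unwounded in +/+ were highest, at 3.70 and 4.09, in the alternative with cells of at least 90% purity. That alternative takes cells of all clusters, so it also leaves out low-purity cells outside the bulge-like ones.

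Free RNA of the suspension, read from barcodes of at least 100 and fewer than 400 UMIs and taken as their mean of 256 UMIs in every cell, would make up about 3.50% of the UMIs of bulge-like unwounded +/+ cells. The Krt16 level in these cells was 5.57% of that in the free RNA, the Krt6b level 5.65%, and the level of Krt1, a keratin of differentiated suprabasal cells, 5.39%. Krt6a stood at 9.98% and Krt17 at 16.7% of their free RNA level. In fl/fl the values were 5.60%, 5.55%, 5.81%, 9.06% and 13.5% for the same genes. Krt16 and Krt6b thus lay at the share of Krt1, and Krt6a and Krt17 above it.

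The share of cells with a UMI shows the same limit. After every cell was thinned to 3000 UMIs, 78.5% (74.1 to 82.4) of unwounded +/+ cells had a Krt16 UMI, where free RNA alone would give 59.3%. The values were 81.3% and 47.6% for Krt6a, 38.7% and 26.6% for Krt6b, and 44.6% and 18.4% for Krt17. At full depth 97.0%, 94.1%, 69.2% and 70.9% of the cells had a UMI of Krt16, Krt6a, Krt6b and Krt17. In the 19 cells of the melanocyte-like cluster 63.2% (38.4 to 83.7) had a Krt16 UMI after the same thinning, at a median depth of 12455 UMIs. That cluster also had 17886 CPM of Krt14 and 4474 CPM of Krt5. Only 2 of its 21 cells before thinning were unwounded, and free RNA would give 13.5% to 16.3% of wounded cells a Krt16 UMI. It therefore cannot serve as a background for unwounded cells. Beside the free RNA values, a single UMI of a wound keratin in an unwounded cell was not read as expression.

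At 3 days the thinned shares in +/+ cells were 89.4% for Krt6a, 53.7% for Krt6b, 83.5% for Krt16 and 82.7% for Krt17. Cells with 3 or more UMIs after thinning separated the pools further. For Krt17 they went from 9.62% of unwounded to 63.5% of 3-day +/+ cells, for Krt6a from 30.1% to 72.7%, for Krt16 from 27.6% to 52.8% and for Krt6b from 3.80% to 31.6%. Thinning left out 11 unwounded and 12 3-day +/+ cells.

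In wounded cells with bulge markers Krt17 was higher than in unwounded bulge-like cells at both times and Krt6a at 3 days, while Krt6b and Krt16 were not higher. Over all pools Krt17 stood at 3812 CPM (3777 to 3846) in 590 wounded and 311 CPM (299 to 324) in 1032 unwounded bulge-like cells. Krt6a stood at 1128 against 633 CPM, Krt16 at 443 against 522 CPM and Krt6b at 99.2 against 179 CPM. After thinning, 86.9% of wounded and 41.0% of unwounded bulge-like cells had a Krt17 UMI, 72.2% and 80.6% had one of Krt6a, and 64.4% and 77.6% had one of Krt16. The share of cells with Krt6a was thus lower in the wound while its pooled level was higher. That level came from 3 days, as in cluster 5, the main wounded bulge-like cluster, Krt6a was at 1501 (+/+) and 1438 CPM (fl/fl) at 3 days but at 584 and 645 CPM at 5 days. Krt17 there was at 3584 and 4257 CPM at 3 days and 3552 and 2288 CPM at 5 days. Different clusters hold these cells, mostly cluster 5 (led by Bgn, Sfrp1 and Postn) in the wound and clusters 2 and 9 in unwounded skin, so this sets clusters of shared markers side by side and not the same cells. Free RNA would make up 3.28% of the UMIs of the unwounded fl/fl pool and 3.21% of the +/+ pool, against 0.517% to 0.635% of the wounded pools, and its part in these differences was not tested.

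Clusters were built without the 4 members, so that their levels could be read across them. Krt6b and Krt16 peaked together in clusters 4 and 14. Cluster 4, led by Il33, Gjb2 and Sprr1b, had 27677 CPM of Krt16, 9764 of Krt6b and 13791 of Krt6a. Cluster 14, led by the cornified envelope genes Lce3c, Lce3d and Crct1, had 31004, 10656 and 13460.0 CPM. Neither passed the rule for a cell type name. Cluster 14 also had raised wound edge markers (Mmp9, Mmp13, Plaur and Inhba), with Mmp9 at 152 CPM beside 231 in the wound edge-like cluster. In +/+ at 3 days clusters 4 and 14 made up 14.2% of the cells. They held 67.0% of the Krt6b, 59.5% of the Krt16, 41.0% of the Krt6a and 27.5% of the Krt17 UMIs. In fl/fl at 3 days the shares were 16.8% of cells and 64.7%, 57.5%, 39.4% and 34.3% of the UMIs.

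**Figure D5:**
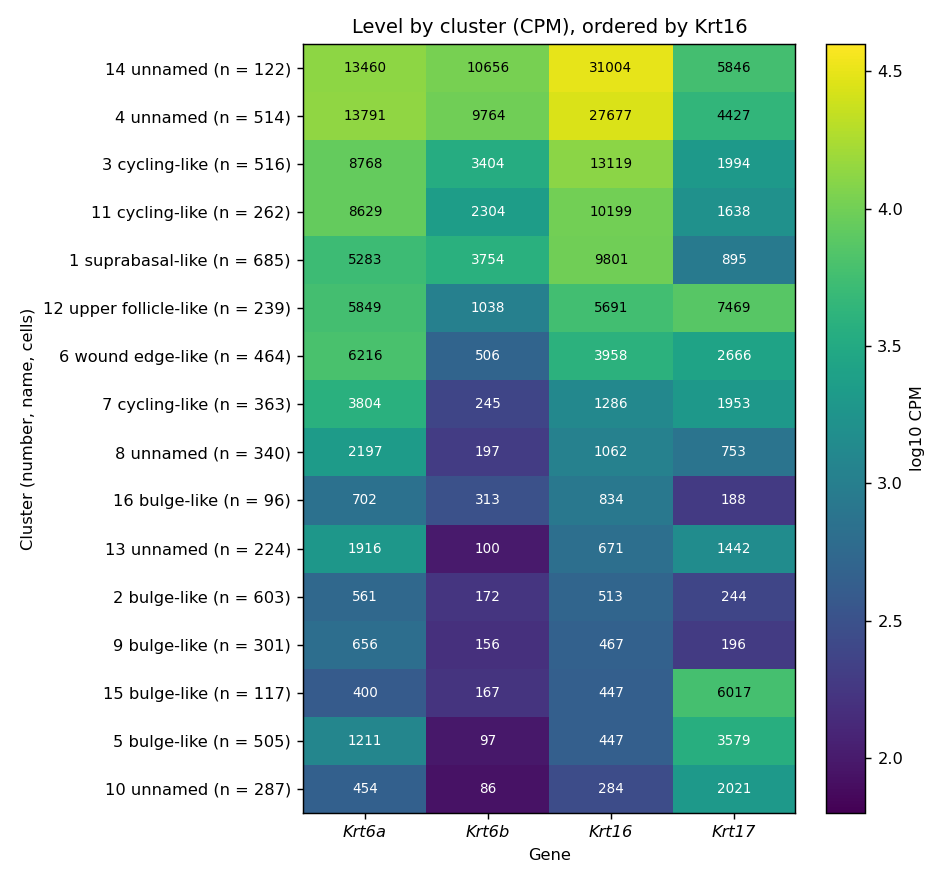
Level of each wound keratin (CPM in the cells, log10 CPM as colour) in the 16 clusters of at least 50 cells, all pools together and ordered by Krt16. Krt6b and Krt16 share their top row, with 10656 and 31004 CPM in cluster 14, and Krt17 has its highest level, 7469 CPM, in cluster 12.

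Krt6a reached further down the clusters than Krt6b. In the wound edge-like cluster, led by the proteases Mmp10, Mmp13 and Mmp9, Krt6a was at 6216 CPM and Krt16 at 3958, but Krt6b at 506 CPM. In cycling-like cluster 7, led by Hist1h1b, Top2a and Nusap1, Krt6a was at 3804 and Krt6b at 245 CPM. Cycling-like cluster 3, led by Ube2c, Cdc20 and Nusap1, had 8768 and 3404 CPM. Cycling-like cluster 11, led by Tnfaip6, Ereg and Kcnq5, had 8629 and 2304 CPM. The suprabasal-like cluster, with Krt1 and Krt10, had 3754 CPM of Krt6b and 9801 of Krt16 with 895 of Krt17.

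Krt17 had its 2 highest levels in follicle clusters, with clusters 14 and 4 next. It was highest in the upper follicle-like cluster, named by Defb6, Krt79 and Cst6, at 7469 CPM, and next in the bulge-like cluster 15, at 6017 CPM beside 400.2 of Krt6a and 447 of Krt16. Clusters 14 and 4 had 5846 and 4427 CPM of Krt17, and held together 27.5% to 43.8% of the Krt17 UMIs of the wounded pools. Bulge-like cluster 5 had 3579 CPM and unnamed cluster 10, led by Aldh3a1 and Lrig1, 2021 CPM, with 447 and 284 CPM of Krt16.

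From 3 to 5 days Krt6a, Krt6b and Krt16 stayed within 1.19-fold of their level and Krt17 was lower. The log2 ratio of 5 over 3 days was -0.63 (-0.64 to -0.62) for Krt17 in +/+ and -0.93 (-0.94 to -0.91) in fl/fl cells. For Krt6a it was -0.07 and 0.03, for Krt16 0.08 and 0.08, and for Krt6b 0.23 and 0.25. No member reached 2-fold in either genotype, as few genes did: 0.141% were higher and 0.813% lower in +/+, and 0.355% and 1.24% in fl/fl cells. The median Krt17 count per 10000 UMIs went from 17.4 to 9.45 in +/+ and from 18.2 to 6.87 in fl/fl cells.

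The upper follicle-like cluster, where Krt17 was highest, went from 9.60% to 3.47% of +/+ cells, and its share of Krt17 UMIs from 22.8% to 3.57%. Krt17 within it was at 9432 CPM at 3 days and 3667 CPM in the 47 cells left at 5 days, and Krt16 at 7663 and 1482 CPM. Without this cluster the log2 ratio of Krt17 was -0.41 in +/+ and -0.83 in fl/fl cells. Within clusters of at least 50 cells at both times, Krt17 in +/+ was lower in 4 and higher in 4 of 8. It was lower in the wound edge-like cluster at -0.72 (-0.76 to -0.69) and in cycling-like cluster 7 at -0.78 (-0.81 to -0.74), and higher in unnamed cluster 8 at 1.20 (1.08 to 1.31). In fl/fl it was lower in 3 of 4 clusters, with -1.10 (-1.14 to -1.06) in the wound edge-like and -0.90 (-0.96 to -0.83) in bulge-like cluster 5. The nearly level pool values of the other members also held differences within clusters. Krt6a in bulge-like cluster 5 had -1.36 (-1.44 to -1.28) in +/+ and -1.16 (-1.28 to -1.04) in fl/fl cells, and in fl/fl the wound edge-like cluster had -1.52 (-1.55 to -1.49) for Krt16 and -0.90 (-0.98 to -0.81) for Krt6b.

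The lower level of Krt17 at 5 days in +/+ was uneven between the sexes called from RNA. In male-called cells Krt17 went from 3770.4 to 2151 CPM, a log2 ratio of -0.81, and in female-called cells from 3134 to 2980.4 CPM, a ratio of -0.07. The difference between these ratios was not tested, and a sex and the animals that carried it cannot be told apart here.

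Over whole wounded pools the wound keratins differed by less than 2-fold between the genotypes. At 3 days the log2 ratio of fl/fl over +/+ was 0.10 (0.09 to 0.11) for Krt6a, 0.02 (0.01 to 0.04) for Krt6b, 0.16 (0.15 to 0.16) for Krt16 and 0.04 (0.02 to 0.05) for Krt17. At 5 days it was 0.20 (0.19 to 0.21), 0.04 (0.03 to 0.05), 0.15 (0.15 to 0.16) and -0.26 (-0.27 to -0.25). None reached 2-fold, where 0.0353% of genes were higher and 0.282% lower at 3 days and 0.0% and 0.462% at 5 days. The sign for Krt6b turned under some other settings at both times, and that for Krt17 at 3 days. In male-called cells alone Krt17 was at -0.053 at 3 and -0.17 at 5 days.

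At 5 days Krt17 was lower in fl/fl in 8 of 9 clusters that held at least 50 cells of each genotype, with the interval of cluster 4 including 0. The gap was -1.04 (-1.10 to -0.98) in unnamed cluster 13, led by the interferon-induced chemokines Cxcl10 and Cxcl9, and -0.70 (-0.74 to -0.66) in the suprabasal-like cluster, while cycling-like cluster 3 had 0.28 (0.25 to 0.31). At 3 days it was higher in fl/fl in 4 of 4, with the interval of the wound edge-like cluster including 0. Krt16 in the wound edge-like cluster at 5 days was at 1948 CPM when fl/fl and 3775 CPM when +/+, a log2 ratio of -0.95 (-0.99 to -0.92), whereas at 3 days it was at 5574 and 4714 CPM. Krt6b there was at 307 and 626 CPM at 5 days, past 2-fold lower in fl/fl at -1.03 (-1.11 to -0.94), and at 571 and 557 CPM at 3 days.

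In unwounded cells 2 of the 4, Krt6b and Krt16, were over 2-fold lower in fl/fl, where 0.245% of genes were and 0.0917% were 2-fold higher. The log2 ratios were -0.74 (-0.80 to -0.68) for Krt6a, -1.56 (-1.68 to -1.45) for Krt6b, -1.49 (-1.55 to -1.42) for Krt16 and -0.68 (-0.77 to -0.59) for Krt17. These ratios rest on the few +/+ cells described above. In bulge-like cells alone they were -0.14, -0.027, 0.0065 and -0.31. In cells of at least 90% hashtag purity they were 0.35, 0.12, 0.13 and -0.36, so that of the 4 only Krt17 stayed lower in fl/fl in both settings and the 2-fold calls of Krt6b and Krt16 were lost.

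Over single wounded cells, thinned to 3000 UMIs, Krt6a, Krt6b and Krt16 went together and Krt17 went with them weakly. Spearman's rho in the 4 wounded pools was 0.78 to 0.82 for Krt6a with Krt16, 0.74 to 0.81 for Krt6b with Krt16 and 0.64 to 0.74 for Krt6a with Krt6b. With Krt17 it was 0.23 to 0.41 for Krt6a, 0.18 to 0.37 for Krt16 and 0.13 to 0.30 for Krt6b. The pools had 508 to 1422 such cells, all from the same capture. Over the 16 clusters Pearson's r of log2(CPM + 10) was 0.98 for Krt6b with Krt16, 0.94 for Krt6a with Krt16 and 0.48, 0.35 and 0.42 for Krt17 with Krt6a, Krt6b and Krt16.

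The genes most like each member over these clusters, out of 2996 ranked, differed in the same way. They were Sfn (0.97), Uchl3, Gjb2, Lypd3 and Ovol1 for Krt6a, and Krt6b (0.98), Sult2b1, Gjb2, Lypd3 and Rala for Krt16. For Krt6b they were Krt16, Sprr1b (0.97), Sprr2h, Sult2b1 and Nectin1, of which the Sprr genes encode cornified envelope proteins. Among those for Krt17 were Mob4 (0.88), Cebpb, Tpd52 and Sidt2. Clusters share the capture and differ in depth, so these values only describe the likeness.

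Other genes that wounded skin is known to switch on were higher in wounded cells too, and several of these were lower at 5 than at 3 days, as Krt17 was. A listed gene counted as measured from 5 CPM in the mean of both pools, a lower floor than the 50 CPM of the shares over all genes. Of 16 measured alarmins and stress-induced cornified proteins, 15 were at least 2-fold higher and 0 lower in +/+ at 3 days. Their median log2 ratio was 3.08, beside 0.06 over all genes. In the other wounded comparisons 13 of 15 (+/+, 5 days), 14 of 15 (fl/fl, 3 days) and 14 of 15 (fl/fl, 5 days) were at least 2-fold higher. Of all genes of at least 50 CPM, 13.4% were higher in +/+ at 3 days, and 11.8%, 14.1% and 14.1% in these comparisons. S100a9, an antimicrobial alarmin, was at a log2 ratio of 5.25 and Slpi, a protease inhibitor, at 4.47. From 3 to 5 days 7 of 17 were at least 2-fold lower in +/+ and 7 of 17 in fl/fl, where 0.813% and 1.24% of all genes of at least 50 CPM were, and S100a8 among them stood at -1.77 in +/+. The list's median log2 ratio was -0.84 in +/+ and -0.79 in fl/fl, beside -0.63 and -0.93 for Krt17. Of 10 measured other epithelial keratins, 4 were at least 2-fold higher and 5 lower in +/+ cells at 3 days, with a median log2 ratio of -0.68. In fl/fl cells at 3 days 3 of 11 were higher and 4 lower, with a median of 0.11. Over all genes of at least 50 CPM 13.4% (+/+) and 14.1% (fl/fl) were higher and 20.7% and 20.6% lower. In +/+ at 3 days the bulge keratins Krt15 and Krt24 were among the lower ones at -4.27 and -4.86, and Krt79 of the upper follicle among the higher ones at 2.47. Of 29 measured regulators named in work on wound keratins, 10 were at least 2-fold higher and 7 lower in +/+ cells at 3 days, with a median log2 ratio of 0.41. In fl/fl cells at 3 days 11 of 30 were higher and 10 lower, with a median of -0.10. The shares of all genes beside these counts are those given for the keratins, with 20.7% (+/+) and 20.6% (fl/fl) lower. TMM scaling changes both regulator medians. It adds 0.56 (+/+) and 0.53 (fl/fl), which turns the sign of the fl/fl median.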

How the data were processed

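The authors deposited UMI counts for 32285 genes and 6 hashtags over all barcodes, made with Cell Ranger 7.1.0 per the file headers, and with the mm10 build per the submitters' processing notes, which also name Seurat 4.3.0. Cells were kept at 1000 or more UMIs, 500 or more genes and at most 10% mitochondrial UMIs. Hashtags were called with HTODemux (Seurat 5.3.0, R 4.3.3, quantile 0.99), which gave 5659 cells with 1 hashtag of 6900, 503 with more than 1 and 738 with none. Scrublet called no doublet among these cells and so did not work here. Levels are pooled counts per 1000000 gene UMIs with exact Poisson intervals. Ratios have exact conditional binomial intervals and shares Clopper-Pearson intervals. The percentage of genes past 2-fold is over genes of at least 50 CPM in the mean of both pools. Clusters (scanpy 1.11.5, Leiden resolution 1) were built and named without the 4 members, and with a name only from 3 or more markers. The scripts were tested on simulated data. TMM factors came from edgeR 4.0.16. Python 3.11.15, numpy 2.4.6 and scipy 1.17.1 were used. Genes other than the members were named as up to 4 of a list with the largest log2 ratio at 20 CPM or more, and the 5 most like each member over clusters, of which 1 is not reported here. The members, lists and markers were chosen with earlier results of these data known. With 1 pool per condition there were no replicates. Alternatives changed the filters, hashtag rule, scaling, weight and choice of cells, free RNA and clustering.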

Additional observations from a re-analysis of the deposited data

Results flagged for a closer look

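The log2 ratios of fl/fl over +/+ pointed in different directions before and after wounding for 3 of the 4 wound keratins, and for the fourth, Krt17, at 3 days only. Krt6a was at -0.74 in unwounded cells, 0.10 at 3 days and 0.20 at 5 days. Krt6b was at -1.56, 0.02 and 0.04, Krt16 at -1.49, 0.16 and 0.15, and Krt17 at -0.68, 0.04 and -0.26 in the same order. From 3 to 5 days Krt6a was at -0.07 in +/+ and 0.03 in fl/fl cells. Within the +/+ pools the ratio of 5 over 3 days differed in direction between cells called female and male, at -0.12 and 0.24 for Krt6b and at -0.05 and 0.08 for Krt16. With 1 pool per condition none of these differences was tested.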

How the results depend on the processing

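With 1 pool per condition no replicate could be left out. No paired analysis was possible because each condition is 1 pool with no replicate number. All 4 wound keratins stayed at least 2-fold higher in each of the 4 wounded comparisons under every alternative run, with the lowest log2 ratio 1.49 (Krt17, +/+, 5 days, male-called cells). The highest was 8.69 (Krt6b, fl/fl, 5 days, free RNA set by Krt1 subtracted). No member passed 2-fold from 3 to 5 days, or between genotypes in wounded cells, under any of them. Of the members in the unwounded genotype comparison, 2 passed 2-fold, and 0 passed with at least 20 hashtag UMIs of which 70% in 1 hashtag, with equal weight per cell, without the 5 cells of highest keratin share, or in bulge-like cells alone. The number was also 0 in cells of at least 90% purity and without the 5 cells with the most keratin UMIs, alternatives added after the data were seen, as were 2 on free RNA and the one without the upper follicle-like cluster. It was 2 with free RNA subtracted by either set of barcodes and 3 with free RNA set by Krt1, where Krt6a (-1.20) joined Krt6b (-5.48) and Krt16 (-3.89).

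Of 584 single-gene ratios, 158 stayed within their counting interval, 402 moved past it and 24 turned sign; the cause was not tested. In unwounded cells fl/fl over +/+ turned for Krt6b (0.59) and Krt16 (0.24) under the alternative hashtag rule, by number and share of hashtag UMIs. That rule gave 5890 cells with a single hashtag against 5659 by the main calls, so it did not keep fewer cells. The unwounded ratio also turned for Krt16 in bulge-like cells (0.0065) and for Krt6a (0.35), Krt6b (0.12) and Krt16 (0.13) at 90% purity. For Krt6a it turned without the 5 cells with the most keratin UMIs (0.071). At 3 days Krt6b turned at 5% (-0.0019) and 20% (-0.022) mitochondrial UMIs, under the alternative hashtag rule (-0.010) and in male-called cells (-0.014). Krt6b also turned at 3 days without the 5 cells of highest keratin share (-0.056) or most keratin UMIs (-0.051). The same held in fl/fl cells with 0 Phgdh UMIs (-0.060) and without the upper follicle-like cluster (-0.0058). Krt17 turned at 3 days at 5% mitochondrial UMIs (-0.039), in male-called cells (-0.053) and without the 5 cells with the most keratin UMIs (-0.0091). Krt6b turned at 5 days at 5% mitochondrial UMIs (-0.072), under the alternative hashtag rule (-0.026) and in male-called cells (-0.028). From 3 to 5 days Krt16 in +/+ (-0.035) and Krt6a in fl/fl (-0.031) turned with equal weight per cell, and Krt6a in fl/fl at 90% purity (-0.040). In the unwounded pools, with medians of 7174.5 and 7243 UMIs per cell, a single wound keratin UMI was not read as expression.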

Other observations

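Cells without a single clear hashtag entered no comparison. The 503 cells with more than 1 hashtag had 6722 CPM of Krt6a, 3385 of Krt6b, 10237 of Krt16 and 2382 of Krt17. The 738 cells with no hashtag had 7077, 2554, 9365 and 1659 CPM.

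Cells high in all 4 wound keratins, with at least 10 UMIs of each per 10000, made up 19.9% to 23.3% of the wounded pools. There were 2 such cells in the unwounded +/+ and 2 in the unwounded fl/fl pool.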
